A study of Mus musculus with 4 samples.

Results

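Collagen genes were followed in spatial transcriptomes of mouse popliteal lymph nodes (PLNs), the nodes that drain the knee and hind paw. The genes were found by name, as every feature whose symbol is Col, a number, the letter a and a number. This gave 44 of the 32287 features, and the 29 with at least 20 unique molecular identifiers (UMIs, each 1 captured RNA molecule) over the 4 capture areas were kept. Together the 29 genes held 18147 UMIs. Of the other 15 features, 9 had between 1 and 17 UMIs and 6 had none (Col2a1, Col9a1, Col10a1, Col11a1, Col19a1 and Col25a1). The threshold fell between Col7a1, kept with 23 UMIs (5 on WT, 7 on Early, 5 on Advanced 1 and 6 on Advanced 2), and Col17a1, left out with 17 (2, 5, 4 and 6).

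The study compared wild-type (WT) mice with TNF-Tg mice, which carry a tumor necrosis factor transgene and develop inflammatory arthritis, at an Early and an Advanced stage. All mice were male and of the C57BL/6 strain. The WT area held 10 PLNs of 5 mice aged 5.5 months, the Early area 6 PLNs of 3 TNF-Tg mice aged 5.5 months, and each of the Advanced areas, called Advanced 1 and Advanced 2, 6 PLNs of 3 TNF-Tg mice aged 8.5 to 9 months. Each area carried 1 section through several pooled nodes, so an area mean is a mean over mice, and WT and Early had 1 area each. Advanced mice were older than WT and Early mice, so stage and age cannot be told apart between them.

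Collagens are triple helices of 3 chains, and each gene encodes 1 chain. Fibrillar collagens such as types I, III and V assemble into the cable-like fibers of capsules, trabeculae and the reticular network. Type IV collagen forms the sheet-like net of basement membranes under endothelium and around fat and muscle cells. In lymph nodes, fibroblastic reticular cells wrap fibers of types I and III, with a type IV coat, into conduits that carry lymph-borne molecules. The 29 genes fell into 8 fibrillar, 3 basement membrane, 6 beaded filament (type VI), 6 fibril-associated, 2 multiplexin and 2 transmembrane genes, 1 short-chain network gene (Col8a1) and the anchoring fibril gene Col7a1. Col11a2 and Col27a1, of other types than I, III and V, were counted among the fibrillar genes.

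Sequences before the gene starts are shown for the 3 genes with a promoter in the RefSeq table whose levels passed a test between conditions. Each is the 150 bases before the RefSeq start in GRCm38.p6, read 5′ to 3′ on the gene's own strand. Capitals mark matches to 3 motifs searched on both strands: the TATA box TATAAA, the CCAAT box CCAAT and the GC box GGGCGG, which reads CCGCCC when it lies on the opposite strand. None of the marked matches overlapped another. The windows lie at chr1:45311388-45311537 (plus strand, Col3a1), chr9:105960644-105960793 (minus strand, Col6a5) and chr9:20815068-20815217 (minus strand, Col5a3), and hold no annotated exon of GENCODE M21.
Col3a1: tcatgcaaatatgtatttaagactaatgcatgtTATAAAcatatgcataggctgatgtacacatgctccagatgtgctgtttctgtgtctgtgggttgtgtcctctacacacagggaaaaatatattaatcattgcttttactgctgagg
Col6a5: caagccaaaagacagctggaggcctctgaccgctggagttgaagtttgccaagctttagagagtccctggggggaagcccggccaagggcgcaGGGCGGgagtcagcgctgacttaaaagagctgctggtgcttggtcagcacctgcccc
Col5a3: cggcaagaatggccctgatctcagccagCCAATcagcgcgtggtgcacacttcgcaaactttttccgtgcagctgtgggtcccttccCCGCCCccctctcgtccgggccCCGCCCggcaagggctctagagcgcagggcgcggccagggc
Of 32851 RefSeq windows of this length, 7.57% held TATAAA, 24.5% CCAAT and 28.6% GGGCGG. Of the 23 collagen genes with such a window, 2, 5 and 14 held them. Col12a1 has no entry in the table. A match describes letters and not a bound site.

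The basement membrane genes Col4a1 and Col4a2 overlap head to head at their 5′ ends on chromosome 8, Col4a1 on the minus strand from 11312826 and Col4a2 on the plus strand from 11312805. The 22 bases from one start to the other, at chr8:11312805-11312826 on the plus strand of GRCm38.p6, lie inside both genes and not before either start. They are shown because both genes were among the most deeply read and their UMIs were compared below. Motifs are not marked in this stretch, which is in small letters throughout although it holds GGGCGG.
Col4a1 and Col4a2: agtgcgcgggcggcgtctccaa

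Spots are small circles of the array that can hold several cells. Areas held from 833 to 2015 spots under tissue and from 1808678 to 5180493 UMIs, and levels are given as UMIs per 10000 UMIs of the same area or zone. Edge spots were those with at least 1 of 6 neighbouring positions without tissue (253 to 471 an area), and interior spots those with tissue on all 6 sides (580 to 1700). Edge spots held a median of 2113 to 5594 UMIs and interior spots one of 140.5 to 250.5, so interior sums rest on many shallow spots. Array barcodes repeat between areas by design, and from 464 to 1050 were shared by a pair of areas, as positions and not as tissue. In RNA summed over spots, fewer cells of a type and less RNA per cell cannot be told apart. Intervals are 95%. Those of levels, ratios and shares cover counting error only, while those of fitted log2 differences come from the SE of the fit.

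The 29 genes together were at a mean of 13.3 ± 2.36 UMIs per 10000 (SD, n = 4 areas). Their level was 14.0 per 10000 on WT (exact Poisson interval 13.4 to 14.5), 14.0 on Early (13.7 to 14.4), 15.4 on Advanced 1 (14.9 to 15.8) and 9.90 on Advanced 2 (9.56 to 10.3). Advanced 2 was the lowest area, and Advanced 1 was the highest. Fibrillar genes were at 5.20 per 10000 on WT, 6.13 on Early, 5.92 on Advanced 1 and 3.05 on Advanced 2, and Advanced 2 was the low area here too. Basement membrane genes were at 4.89, 3.57, 4.44 and 3.30 in the same order, highest on WT. The 2 Advanced areas thus differed from each other by more than either WT or Early differed from Advanced 1.

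**Figure D1:**
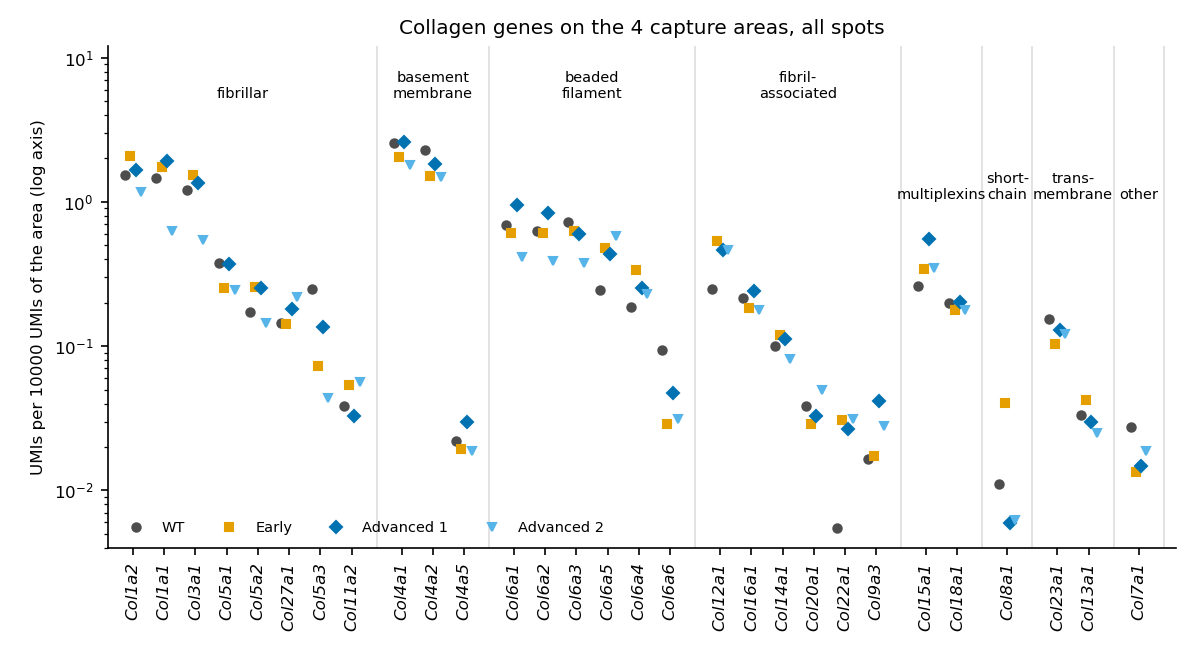
UMIs per 10000 UMIs of the area (log axis) for the 29 collagen genes, grouped by class, with 1 point per capture area over all its spots. Advanced 2 (light blue triangles) lies below Advanced 1 (blue diamonds) for 22 of the 29 genes, and WT (grey circles) stands apart for Col12a1, Col6a5 and Col5a3.

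Among fibrillar genes, Col1a1 and Col1a2 encode the chains of type I collagen, the main fiber of connective tissue. Col1a1 (chromosome 11, GRCm38 94936224 to 94953042) was at 1.45 UMIs per 10000 on WT, 1.75 on Early, 1.92 on Advanced 1 and 0.625 on Advanced 2. Col1a2 (chromosome 6, 4504814 to 4541544) was at 1.55, 2.07, 1.68 and 1.17 in the same order. For both genes Advanced 2 was lowest, and Col1a1 on Advanced 1 was 3.08 times its level on Advanced 2. Col3a1 (chromosome 1, 45311538 to 45349706), the only chain of type III collagen and the main reticular fiber gene, was at 1.22 on WT, 1.53 on Early, 1.35 on Advanced 1 and 0.544 on Advanced 2. Here too 3 areas lay together and Advanced 2 lay apart. Col5a1 and Col5a2, chains of the type V collagen that starts fibrils, ranged from 0.244 to 0.376 and from 0.144 to 0.259 over the areas. Both were lowest on Advanced 2. Col27a1 and Col11a2 went the other way and were highest there, at 0.219 and 0.0563.

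Col5a3, another type V chain (chromosome 9, 20770050 to 20815067), was at 0.249 UMIs per 10000 on WT, 0.0734 on Early, 0.136 on Advanced 1 and 0.0438 on Advanced 2. These levels rest on 45, 38, 46 and 14 UMIs. WT was highest, and its interval (0.181 to 0.333) just touched that of Advanced 1 (0.0997 to 0.182) and lay above those of the other two.

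The basement membrane genes varied less between areas than Col1a1 and Col3a1 did. Col4a1 (chromosome 8, 11198423 to 11312826) was at 2.57 per 10000 on WT, 2.04 on Early, 2.59 on Advanced 1 and 1.79 on Advanced 2. Col4a2 (chromosome 8, 11312805 to 11449287) was at 2.30, 1.52, 1.82 and 1.49. Highest and lowest areas differed by 1.45 times for Col4a1 and 1.55 times for Col4a2, against 3.08 times for Col1a1 and 2.82 times for Col3a1. Other fibrillar genes lay near them, with 1.53 times for Col27a1, 1.54 for Col5a1 and 1.76 for Col1a2. The third kept gene, Col4a5, a chain of specialised basement membranes, had only 30 UMIs, and Col4a3, Col4a4 and Col4a6 stayed under the threshold with 1, 4 and 5.

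Type VI collagen is a net of beaded filaments around cells, built from the Col6a1 and Col6a2 chains with one further chain. Col6a1 was at 0.691 UMIs per 10000 on WT, 0.612 on Early, 0.950 on Advanced 1 and 0.416 on Advanced 2. Col6a2 was at 0.630, 0.606, 0.841 and 0.388, and Col6a3, the usual further chain, at 0.730, 0.625, 0.601 and 0.375. All of them were lowest on Advanced 2. The alternatives to Col6a3 did not share this order. Col6a5 (chromosome 9, 105856078 to 105960643) was at 0.243 on WT, 0.477 on Early, 0.438 on Advanced 1 and 0.585 on Advanced 2. It was lowest on WT and highest on Advanced 2, where the other chains were lowest. Col6a4 was at 0.188, 0.340, 0.255 and 0.231, also lowest on WT, while Col6a6 had only 58 UMIs and was highest on WT, at 0.0940.

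Fibril-associated collagens sit on the surface of fibers. Col12a1 (chromosome 9, 79598991 to 79718831), which binds type I fibers, was at 0.249 UMIs per 10000 on WT, 0.533 on Early, 0.465 on Advanced 1 and 0.463 on Advanced 2. WT was the low area, and the 3 TNF-Tg areas lay close to each other. Col16a1 ranged from 0.178 to 0.243 and Col14a1 from 0.0813 to 0.120 over the areas. Multiplexins are basement membrane proteoglycans with a collagen core. Col15a1 was at 0.260 on WT, 0.344 on Early, 0.554 on Advanced 1 and 0.350 on Advanced 2, and Col18a1, the source of endostatin, was nearly even, from 0.178 to 0.201. The transmembrane genes Col23a1 and Col13a1 had 165 and 46 UMIs.

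Collagen UMIs were seen in a minority of spots. Fibrillar UMIs were seen in 20.9% to 33.4% of the spots of an area and basement membrane UMIs in 23.8% to 31.0% of them. The richest 10% of spots (83 to 202 of an area) held 73.4% to 78.2% of its fibrillar UMIs and 70.5% to 75.0% of its basement membrane UMIs, beside 57.4% to 64.2% of all UMIs. Sparse counts can gather in fewer spots through sampling alone. The shares were not set against such sampling and do not show gathering beyond depth.

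**Figure D2:**
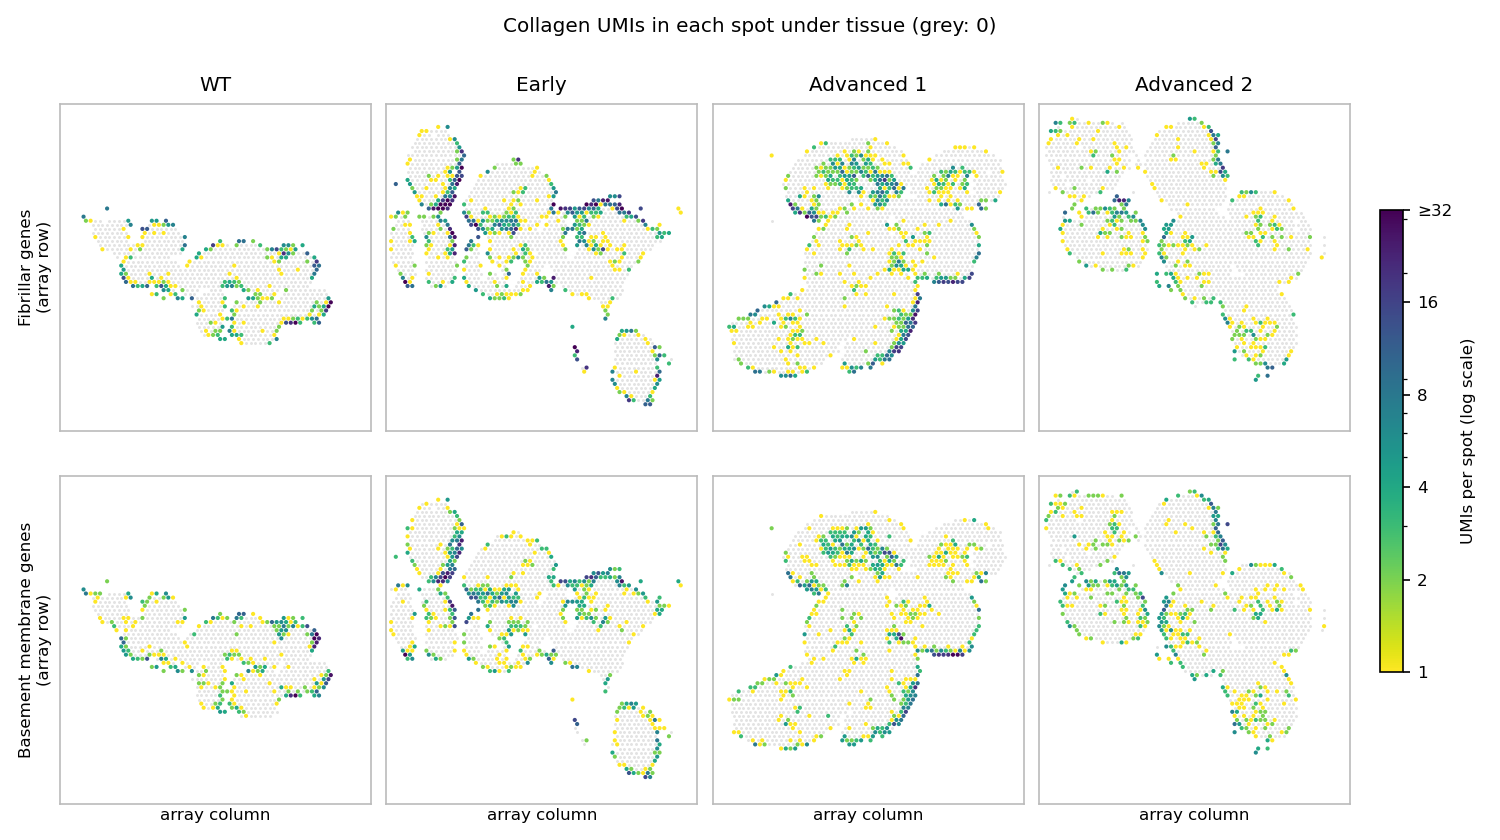
Each spot under tissue at its place on the array, coloured by its fibrillar (top) or basement membrane (bottom) UMIs on a log scale, with spots at 0 in grey, for the 4 capture areas. Spots with many UMIs form strips along parts of the tissue edge and patches inside it, and many of these places are the same for both classes. The richest single spot held 190 fibrillar UMIs, on Early.

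The comparison of edge with interior spots asked whether collagen transcripts lie more at the rim of the tissue or inside it. Zones follow the outline of the tissue and not single nodes, so borders between touching nodes would count as interior. Edge spots were 15.6% to 31.6% of the spots of an area and held 47.9% to 79.3% of its UMIs. Whether interior spots lay on node tissue throughout, or held RNA spread from neighbouring spots, was not tested. The comparison is thus one of spots by outline and not of node rim with node inside. On WT, with 10 PLNs, 1 connected piece held 828 of 833 spots, and on Advanced 1, with 6 PLNs, 1 held 2013 of 2015. UMIs of 20 of the 29 genes were deep enough to test, and none passed an adjusted p of 0.05 in either direction in edgeR's quasi-likelihood test over 10997 genes with the area as a block. Over all genes tested, 4.29% were called higher at the edge and 3.75% lower. At an unadjusted p under 0.05, 5 collagen genes and 2389 of all genes passed, and DESeq2 also called 0 collagen genes. Calls over all genes were counted for the main edgeR fits only. A 0 from DESeq2, here or below, thus cannot be set against a share over all genes. The median log2 difference was -0.01 over the 20 genes, of which 9 were above 0, and -0.0027 over all genes. The absence of calls does not show that levels were equal, and the intervals below give the sizes the data allow.

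**Figure D3:**
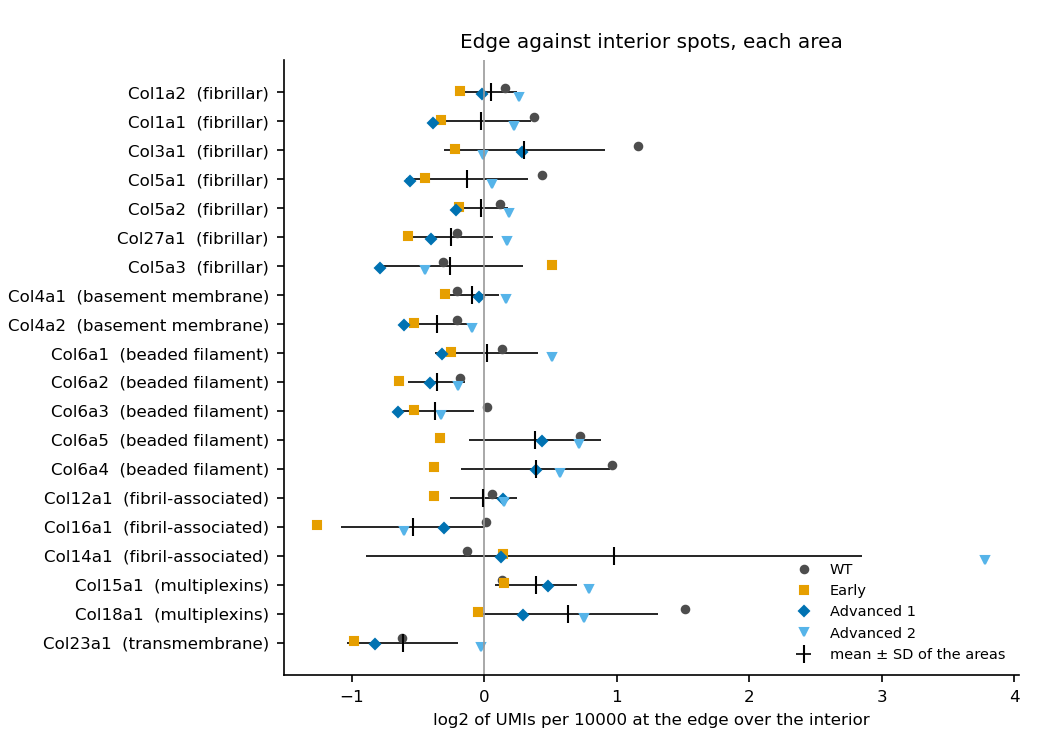
Log2 of UMIs per 10000 at the edge over the interior for the 20 tested collagen genes, with 1 point per area and the mean ± SD of the 4 areas in black. For most genes the 4 areas lie on both sides of 0, and Col14a1 on Advanced 2 stands alone at 3.78, where the interior held 1 UMI.

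Among fibrillar genes, the fitted edge minus interior difference was 0.11 on the log2 scale for Col1a2 (interval -0.12 to 0.34), -0.03 for Col1a1 (-0.30 to 0.23) and 0.26 for Col3a1 (-0.04 to 0.56). The widest of these intervals ended at 1.48 times, for Col3a1. Col3a1 varied most between areas. At the edge it was at 1.37 per 10000 on WT, 1.48 on Early, 1.49 on Advanced 1 and 0.543 on Advanced 2, and in the interior at 0.615, 1.72, 1.22 and 0.546. Only on WT was the edge above the interior by more than 2 times. On Early the interior was higher, and on Advanced 2 both zones were alike.

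No test compared the chains of a class with each other. For Col4a1 the log2 difference was -0.01 (interval -0.24 to 0.21) and for Col4a2 it was -0.29 (-0.52 to -0.06, adjusted p = 0.124 from edgeR). Col4a2 was at 2.23 UMIs per 10000 at the edge and 2.57 inside on WT, 1.37 and 1.98 on Early, 1.43 and 2.18 on Advanced 1, and 1.45 and 1.55 on Advanced 2. The interior was higher on 4 of 4 areas. Without the WT area, Col4a2 passed the test in edgeR (log2 difference -0.34, adjusted p = 0.0431).

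Of the type VI genes none passed. The log2 difference was -0.32 for Col6a2 and -0.34 for Col6a3 (adjusted p = 0.156 from edgeR for both), 0.01 for Col6a1 and 0.36 for Col6a5 (adjusted p = 0.243 from edgeR). Of these, Col6a2 was higher inside on 4 of 4 areas and Col6a3 on 3 of 4. Col6a5 and Col6a4 were higher at the edge on 3 of 4 areas, with Early as the exception for both.

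The smallest adjusted p belonged to Col15a1, whose protein lies where basement membranes meet fibers. Its levels at the edge were 0.265 on WT, 0.353 on Early, 0.649 on Advanced 1 and 0.412 on Advanced 2, against 0.241, 0.318, 0.466 and 0.238 inside. The edge was higher on 4 of 4 areas. The log2 difference was 0.51 (SE 0.17, adjusted p = 0.0689 from edgeR), and it passed the test in 3 of 14 settings, with the stricter edge (0.60, adjusted p = 0.0338 from edgeR), with interior spots at least 3 steps inside (0.71, adjusted p = 0.0459 from edgeR) and without the WT area (0.54, adjusted p = 0.0409 from edgeR). Col18a1, the other multiplexin, differed by 0.49 (SE 0.24, adjusted p = 0.236 from edgeR), and was higher at the edge on 3 of 4 areas, with Early as the exception.

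Other cell types did differ between the zones in the same fit. Of 10 adipocyte markers (such as Adipoq and Plin1), 9 were tested and 8 were higher at the edge, with a summed level of 8.61 to 23.9 UMIs per 10000 at the edge and 4.36 to 9.69 inside. Of the 5 B cell and 5 red cell markers 4 each were higher at the edge, and of the 5 T cell markers 3 were lower. Of 5 high endothelial venule markers tested, 2 were higher and 1 was lower. Of 8 fibroblast markers 7 were tested and 1 was higher, with sums of 9.90 to 19.8 at the edge and 10.4 to 15.4 inside, and of 7 fibroblastic reticular cell markers 2 were lower at the edge, with sums of 9.17 to 18.5 against 12.2 to 22.0. No fibroblast, reticular cell or T cell marker was at 0 in either zone, and of the adipocyte markers Lep was at 0 in the interior of 3 areas. The part of these cells in the collagen values was not tested.

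The ratio of fibrillar to basement membrane UMIs compares the classes within the same spots, so it does not depend on depth. It is used to compare places and not to rank the classes, since UMIs count molecules of genes of different length. At the edge the ratio was 1.15 on WT (exact interval 1.04 to 1.28), 1.77 on Early (1.65 to 1.89), 1.40 on Advanced 1 (1.26 to 1.55) and 0.953 on Advanced 2 (0.855 to 1.06). In the interior it was 0.775 (0.625 to 0.958), 1.60 (1.44 to 1.78), 1.28 (1.17 to 1.41) and 0.872 (0.748 to 1.02). The edge was higher on 4 of 4 areas, with a mean log2 difference of 0.24 ± 0.22 (SD, n = 4 areas). Most of this came from WT, where the edge ratio was 1.48 times the interior one, and on the other areas it was 1.09 to 1.10 times, with overlapping intervals. Without WT the mean was 0.13. Areas differed more than zones did: the ratio over all spots was 1.06 on WT, 1.72 on Early, 1.33 on Advanced 1 and 0.925 on Advanced 2.

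Going inwards step by step gave no common course. Fibrillar genes were at a mean of 5.03 ± 1.25 per 10000 at the first step (SD, n = 4 areas), 5.07 ± 2.01 at the second, 4.45 ± 2.06 at the third and 5.11 ± 2.23 at steps 4 and 5. Basement membrane genes were at 3.85 ± 0.676, 4.34 ± 0.914, 4.59 ± 1.68 and 4.56 ± 0.980. The ranges of mean ± SD overlapped between all these steps for each class. Adipocyte markers were at 16.8 ± 6.85 at the first step and 6.23 ± 1.86 at the second.

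**Figure D4:**
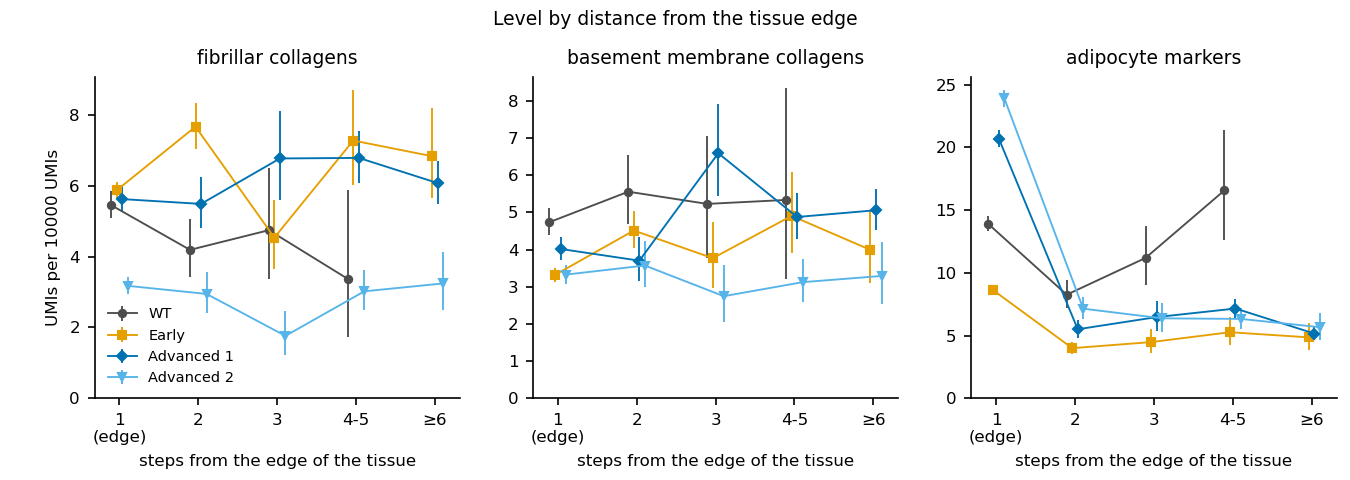
UMIs per 10000 by steps from the tissue edge for fibrillar genes, basement membrane genes and adipocyte markers, with 1 line per area and exact 95% Poisson intervals, leaving out bins under 20 spots. Advanced 2 is lowest for fibrillar genes at every step, no step is high on all areas for either collagen class, and adipocyte markers are lower at the second step than at the edge on 4 of 4 areas.

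Counting spots instead of UMIs gave a like picture at equal depth. Among spots with at least 500 UMIs, each thinned to 500 UMIs, Col1a1, Col1a2 or Col3a1 was seen in 16.0% ± 4.49 of edge spots (SD, n = 4 areas) and 13.7% ± 4.99 of interior spots. For Col4a1 or Col4a2 the shares were 16.7% ± 4.60 and 17.9% ± 4.59. Without thinning the shares were 61.5% and 41.4% for the fibrillar genes, and 67.9% and 47.6% for the type IV genes. The gap between zones was wide without thinning and small at equal depth. The cut at 500 UMIs left out 442 of 580 interior spots on WT and 712 of 1011 on Early. On Advanced 1 it left out 1126 of 1700 and on Advanced 2 887 of 1380, against 35 to 86 edge spots an area. Interior shares thus describe a minority of the interior spots. A spot mixes cells, so no cell type that lacks collagen could serve as a background here.

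The Early area held 4 connected pieces of at least 50 spots, which may each hold several nodes, and the ratio of fibrillar to basement membrane UMIs ran from 1.28 to 2.09 among them. On Advanced 2 it was 0.847 and 1.13 in 2 pieces. Advanced 1, in 1 piece, was at 1.33, within the range of the Early pieces. All pieces of Early lay above both pieces of Advanced 2, although the interval of the lowest Early piece (1.04 to 1.58) overlapped that of the upper Advanced 2 piece (0.952 to 1.35).

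Conditions were compared in sums over all spots of each area, in 1 edgeR fit of the 3 groups. The spread came from the 2 Advanced areas alone, and WT and Early, with 1 area each, were assumed to vary alike. Each gene's spread was set to the trend over all genes. A wide gap of 1 gene between the Advanced areas, such as 2.48 times for Col3a1 or 3.11 times for Col5a3, thus did not widen its own SE. Of the 29 genes, 27 were tested in each comparison. The comparisons share areas (both against WT share the WT area), so their results are not independent. Shares over all genes are from this fit, and none was counted for DESeq2 or other settings. A collagen call lost in those settings may thus not be particular to collagen genes.

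Between Advanced and Early, 1 collagen gene was lower, Col3a1, and 0 were higher. Over the 13102 genes tested, 0.664% were called lower and 0.496% higher. Col3a1 differed by -0.77 on the log2 scale (SE 0.19, adjusted p = 0.00697 from edgeR), or 0.585 times the Early level. Its levels, given above, put Advanced 1 at 1.35 and Early at 1.53, with Advanced 2 apart at 0.544, so the call rests on Advanced 2. The log2 difference was -0.27 without Advanced 2 and -1.56 without Advanced 1. It was no longer called when single genes were allowed a larger spread (adjusted p = 0.982 from edgeR's robust fit, a setting chosen after seeing the data) or in DESeq2 (adjusted p = 1.0), where 0 collagen genes were called.

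The type I genes were also lowest on Advanced 2. Col1a2 differed by -0.62 (SE 0.18, adjusted p = 0.0561 from edgeR) and was below Early on both Advanced areas. Col1a1 differed by -0.54 (SE 0.19, adjusted p = 0.170 from edgeR), with Advanced 1 above Early and Advanced 2 below. For Col4a1 and Col4a2 the differences were 0.02 (interval -0.33 to 0.38) and 0.05 (-0.31 to 0.41). The median over the 27 genes was 0.02, with 14 above 0, beside 0.01 over all genes, and the fitted median of the 8 fibrillar genes was -0.41. That median rests on Advanced 2: from the levels, the median log2 over Early was 0.06 on Advanced 1 and -0.78 on Advanced 2. At an unadjusted p under 0.05, 6 of the 27 genes passed, beside 1007 of 13102 genes.

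Between Advanced and WT, Col6a5 was higher and Col5a3 was lower. Over all genes, 0.733% were called higher and 1.34% lower. Col6a5 differed by 0.96 on the log2 scale (SE 0.29, adjusted p = 0.0471 from edgeR), or 1.94 times WT, and both Advanced areas lay above WT. Its call held in 2 of 9 settings with a test, the adjusted p ranging from 0.0471 to 1.00, so it lay at the threshold. Col5a3 differed by -1.57 (SE 0.41, adjusted p = 0.00972 from edgeR), or 0.337 times WT, with both Advanced areas below WT. Its log2 difference was -0.99 without Advanced 2 and -2.60 without Advanced 1. It was called in 6 of 9 settings and not in DESeq2, where 0 collagen genes were called, nor in the edge or the interior spots alone. The median over the 27 genes was -0.15, with 9 above 0, beside 0.01 over all genes, and 8 of the 27 had an unadjusted p under 0.05, beside 1408 of 13102 genes. Col4a2 (-0.59, SE 0.19, adjusted p = 0.0708 from edgeR) and Col6a3 (-0.69, SE 0.24, adjusted p = 0.109 from edgeR) came next.

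Between Early and WT, Col12a1 was higher and Col5a3 was lower. Over all genes, 1.28% were called higher and 1.52% lower. Col12a1 differed by 1.06 on the log2 scale (SE 0.31, adjusted p = 0.0270 from edgeR), or 2.09 times WT, and Col5a3 by -1.79 (SE 0.47, adjusted p = 0.00836 from edgeR), or 0.289 times WT. Each call held in 6 of 9 settings and was lost in DESeq2 (0 collagen genes) and in the edge or interior spots alone. Col6a5 differed by 0.94 (SE 0.31, adjusted p = 0.0846 from edgeR) and Col12a1 between Advanced and WT by 0.79 (SE 0.29, adjusted p = 0.172 from edgeR). The 3 TNF-Tg areas lay above WT for Col12a1 and Col6a5 and below it for Col5a3, while the tests passed for some pairs only and the comparisons share the WT area. Such a position was common: of 13436 genes, 38.6% lay above WT on all 3 TNF-Tg areas and 21.2% below, beside 20.7% and 24.1% of the 29 collagen genes. The median over the 27 genes was 0.03, with 14 above 0, beside 0.01 over all genes, and 6 of the 27 had an unadjusted p under 0.05, beside 1425 of 13102 genes.

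**Figure D5:**
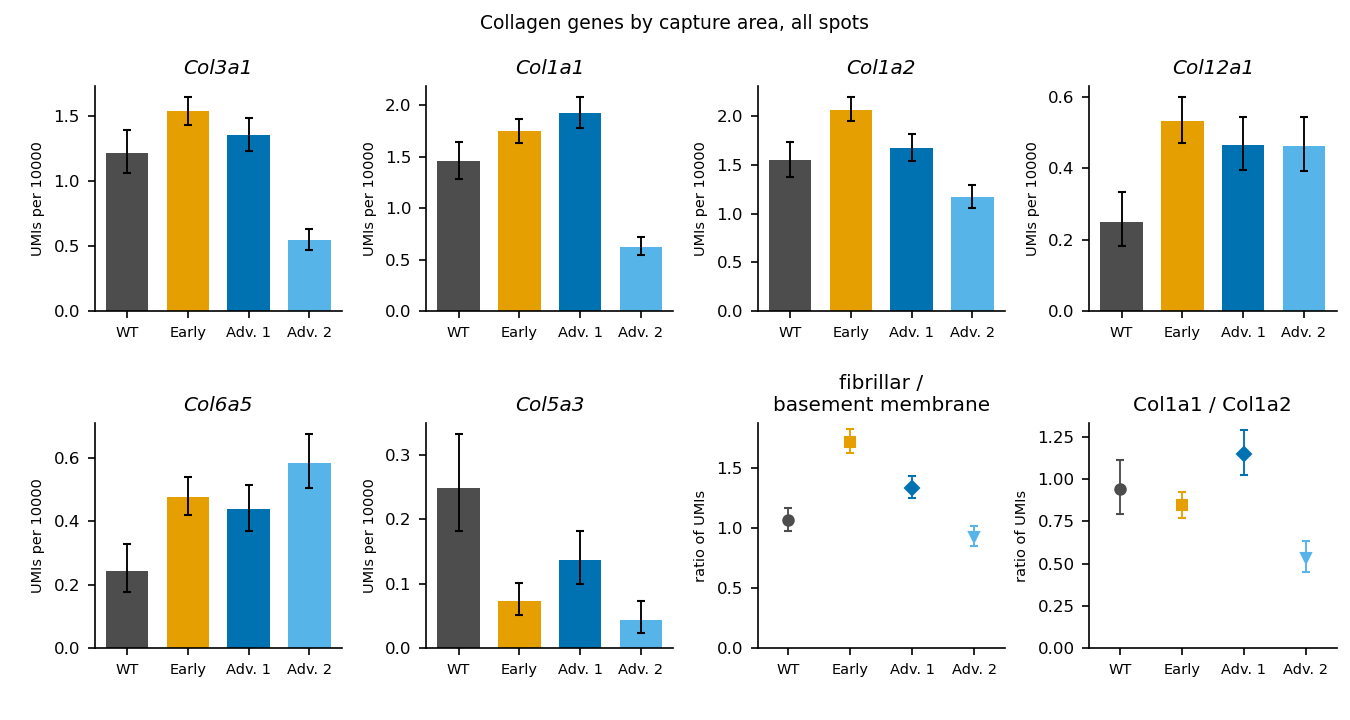
Bars give UMIs per 10000 over all spots of each capture area for 6 collagen genes, and points give the ratio of fibrillar to basement membrane UMIs and of Col1a1 to Col1a2 UMIs, all with exact 95% counting intervals. Advanced 2 stands apart for Col3a1 and Col1a1, and WT for Col12a1, Col6a5 and Col5a3.

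Markers of other cells also differed between the areas. Summed fibroblast markers were at 18.9 per 10000 on WT, 10.0 on Early, 12.6 on Advanced 1 and 13.2 on Advanced 2, and adipocyte markers at 13.1, 7.56, 13.0 and 17.7. The fibroblast sum was lowest on Early and not on Advanced 2, where fibrillar genes were lowest. Of the 8 fibroblast markers, 3 were lower on Early and 3 on Advanced than on WT in edgeR. The list was split, with 4 of 8 log2 differences above 0 in each of these comparisons. Of the 8 macrophage markers 5 were lower than WT on Early and 6 on Advanced. Red cell markers were higher than WT in both (5 of 5), at 3.71 on WT and 11.0 to 14.9 on the other areas. B cell markers were higher than WT in Early (5 of 5) and Advanced (2 of 5). Lymphatic endothelium markers were lower than WT in Early (5 of 8) and Advanced (3 of 8), and so were T cell markers (3 and 2 of 5). Between Advanced and Early, 5 of 10 adipocyte markers were higher. No fibroblast, macrophage or adipocyte marker was at 0 over a whole area, and of the red cell markers Alas2 was at 0 on WT. The part of these cells in the collagen differences was not tested.

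The spread between the 2 Advanced areas was wide for collagens beside other genes. Of the 29 collagen genes 22 were higher on Advanced 1, beside 53.4% of the 13436 genes with at least 20 UMIs that were above 0 on every area. The median log2 of Advanced 1 over Advanced 2 was 0.47 for the collagen genes and 0.03 for those genes. Of the 11 collagen genes with at least 500 UMIs, 10 were higher on Advanced 1, and 36.4% differed by more than 2 times, against 0.527% of the 5312 genes with at least 500 UMIs. These were Col1a1 (3.08 times), Col3a1 (2.48), Col6a1 (2.28) and Col6a2 (2.17). Col6a5 was the exception, at 0.749 times. These are values of 2 areas, with no test.

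Chains that pair in 1 protein kept different proportions. Col6a1 and Col6a2 kept close to each other, with 1.10 Col6a1 UMIs per Col6a2 UMI on WT, 1.01 on Early, 1.13 on Advanced 1 and 1.07 on Advanced 2, and overlapping intervals throughout. For Col4a1 and Col4a2 the ratio was 1.12, 1.34, 1.42 and 1.20, and the interval of Advanced 1 (from 1.2799) began just above the end of that of WT (1.2763). Col1a1 and Col1a2 did not: the ratio was 0.939 on WT (exact interval 0.791 to 1.12), 0.844 on Early (0.772 to 0.923), 1.15 on Advanced 1 (1.02 to 1.29) and 0.533 on Advanced 2 (0.447 to 0.635), with Advanced 2 below all others. Col6a5 UMIs per Col6a3 UMI were 0.333 on WT, 0.762 on Early, 0.729 on Advanced 1 and 1.56 on Advanced 2. The intervals of WT (0.231 to 0.472) and Advanced 2 (1.23 to 1.98) lay outside those of the other areas.

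Zones also differed in some of these proportions on the Advanced areas. On Advanced 1 there were 1.78 Col4a1 UMIs per Col4a2 UMI at the edge (exact interval 1.51 to 2.10) and 1.20 inside (1.05 to 1.38). On the other areas the edge and interior intervals of this ratio overlapped. Col6a5 UMIs per Col6a3 UMI were 1.09 at the edge and 0.516 inside on Advanced 1, and 1.97 and 0.959 on Advanced 2, with intervals that did not overlap. On WT (0.362 and 0.222) and Early (0.792 and 0.689) they overlapped.

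Whether the edge to interior difference itself changed between Advanced and Early was tested in 1 fit with an interaction term. None of the 20 collagen genes passed an adjusted p of 0.05 in edgeR, beside 0.0455% of 10997 genes, and DESeq2 called 0 of them. At an unadjusted p under 0.05, 1 collagen gene and 421 genes passed. That gene was Col6a5, with a log2 difference of 0.85 (SE 0.35, adjusted p = 1.00 from edgeR). It was higher inside than at the edge on Early (0.564 against 0.448 per 10000) and lower inside on both Advanced areas (0.375 against 0.507, and 0.414 against 0.678). The median of this term was 0.33 over the 20 genes, with 18 above 0, and -0.0085 over all genes, with 5379 above 0. All of it rests on 1 Early area. In the same fit 4 of 5 red cell markers were called lower (median -1.91), the only lower calls among all genes, and 0 of 9 adipocyte markers were called (median 1.12). Their part in the collagen values was not tested.

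Genes that make, process, bind and break collagen were counted from lists. Their calls are from the main edgeR fit, and how they depend on the processing was not examined. Of 19 genes for modification and folding, 16 were tested between edge and interior and 0 passed, and of 18 tested between conditions 1 passed, Serpinh1, the collagen chaperone Hsp47. It was at 1.33 UMIs per 10000 on WT, 1.08 on Early, 1.07 on Advanced 1 and 0.638 on Advanced 2, and was lower in Advanced than in WT by -0.76 on the log2 scale (SE 0.21, adjusted p = 0.0144 from edgeR). Advanced 2 was again the low area. The most deeply read genes of the list, Ppib, P4hb and Colgalt1, were called in no comparison. Of 13 genes for procollagen processing and cross-linking, 7 were tested between zones and 9 between conditions, and 0 passed in edgeR. Among them was Pcolce, the enhancer of propeptide cleavage, at 1.26, 0.981, 1.58 and 0.763 over the areas.

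Among 14 fibril-associated proteoglycans and glycoproteins, Fn1 (fibronectin) was higher at the edge (log2 difference 0.44, SE 0.12, adjusted p = 0.0311 from edgeR). Between conditions all 14 were tested. Fn1 was at 1.08 UMIs per 10000 on WT, 1.44 on Early, 0.633 on Advanced 1 and 0.682 on Advanced 2, and was lower in Advanced than in Early (-1.21, SE 0.19, adjusted p = 2.97e-07 from edgeR). Both Advanced areas lay below the others, and Fn1 was also lower in Advanced than in WT (-0.83, SE 0.21, adjusted p = 0.00696 from edgeR). Postn (periostin) was at 0.752, 1.19, 0.613 and 0.722, and was also lower in Advanced than in Early (-0.91, SE 0.20, adjusted p = 0.00108 from edgeR). Dcn (decorin), which coats type I fibers, was at 6.66, 3.59, 4.34 and 3.95, lower than WT in Early (-0.92, adjusted p = 0.000214 from edgeR) and in Advanced (-0.80, adjusted p = 0.000154 from edgeR). Lum (lumican) was at 1.13, 0.515, 0.672 and 0.582, and was also lower than WT in both. Dcn and Lum stand in the fibroblast marker list too. The list's median between Advanced and Early was 0.22, with 10 of 14 above 0, beside 6767 of 13102 genes.

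Of 16 other basement membrane genes, 11 were tested between zones, where 1 was higher at the edge, and 13 between conditions. Hspg2 (perlecan) was at 1.90 UMIs per 10000 on WT, 1.09 on Early, 2.01 on Advanced 1 and 1.56 on Advanced 2. It was lower in Early than in WT (-0.84, SE 0.22, adjusted p = 0.00934 from edgeR), and Early was also below both Advanced areas. Of 12 genes of collagen breakdown, Mmp9 was higher at the edge (0.88, SE 0.17, adjusted p = 0.00261 from edgeR) and in Early against WT (1.18, SE 0.31, adjusted p = 0.00846 from edgeR), and the inhibitor Timp1 was lower in Advanced than in WT (-1.39, SE 0.41, adjusted p = 0.0408 from edgeR). Of 9 collagen receptor genes, Itga1, the integrin that binds type IV collagen, was at 0.420, 0.376, 0.787 and 0.610 over the areas and was higher in Advanced than in Early (0.81, SE 0.23, adjusted p = 0.0344 from edgeR). Both Advanced areas lay above WT and Early.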

How the data were processed

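Visium libraries of 4 capture areas, each 1 section through pooled PLNs, were read as deposited count tables: the authors aligned reads to mm10 (GRCm38) with Space Ranger 1.1.0 and counted UMIs per feature and spot, without normalization. The submitters' processing notes also name Seurat 4.0.3 and R 4.1.1. Depth limits precision, and the total count per area ran from 1808678 to 5180493.

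UMI counts were summed per area, or per area and zone, after taking groups from the sample labels. Coordinates are from GENCODE M21, which matched 32158 of 32287 features. Sums were tested with edgeR 4.0.16 (quasi-likelihood, TMM, filter on low counts, Benjamini-Hochberg adjustment over all genes tested, threshold 0.05) in R 4.3.3. Edge against interior had the area as a block, since both zones are from the same section and mice. Conditions were fitted on the 4 area sums. For edge against interior, p-values measure the spread between areas, with each gene's spread drawn towards that of all genes. In the conditions and interaction fits the trend over all genes got infinite weight. There p-values measure that shared spread and not each gene's own. Scripts were tested on simulated data in which every gene had the same spread. Those data could not show wrong calls for genes that vary more than others. Sums, ratios and exact intervals used Python 3.11.15, numpy 2.4.6, pandas 2.3.3 and scipy 1.17.1, and DESeq2 1.42.0 was an alternative.

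Spots were thinned to 500 UMIs for shares of spots. UMIs come from the 3′ end and were not divided by length, so genes were not ranked by level. Collagen genes and gene lists were chosen with earlier results of these data known. Values in every area were given by rule for the 11 collagen genes with at least 500 UMIs, those past the threshold between conditions and the pair at the 20 UMI threshold. In the other lists the rule named the 3 genes with most UMIs and the 2 with the smallest adjusted p in a comparison. Not all of those are printed. Other collagen genes are given for completeness, chosen after their values were seen. Immunoglobulin and hemoglobin genes took 4.19% to 8.35% of UMIs and stayed in. A result withheld for evaluation is not reported here.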

Additional observations from a re-analysis of the deposited data

Results flagged for a closer look

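The edge to interior difference of Col14a1, a fibril-associated collagen, had 1 area far from the other 3. The log2 difference was -0.13 on WT, 0.14 on Early, 0.12 on Advanced 1 and 3.78 on Advanced 2, and the gap of Advanced 2 to its nearest neighbour was 0.929 of the whole range. On Advanced 2 the edge held 25 Col14a1 UMIs (0.121 per 10000) and the interior 1 UMI (0.00881 per 10000). Each of the 24 collagen genes with UMIs in both zones of every area was examined in this way, and chance flags about 1 in 20 groups. The 4 areas are from 3 groups, so they are not replicates of 1 condition.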

How the results depend on the processing

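Of 87 alternatives for counts of called collagen genes and for the fibrillar to basement membrane ratio, 64 kept the value and 23 moved it. Of 516 for single genes, 428 were counted as the same, 27 turned the direction, 20 lost a call, 5 gained one and 36 moved in size. With a test, the same means that direction and call were kept. Without a test, it means a value within 1 SE of the main one, of either sign for genes without a call. The 36 that moved had no test and lay at least 1 SE away. At the edge, the count higher went from 0 to 1 (Col15a1) with edge spots of at least 2 open positions and with interior spots at least 3 steps inside, and ranged from 0 to 1 when 1 area was left out, as did the count lower (Col4a2), both through leaving out WT. Between conditions, DESeq2, edge spots only and interior spots only each gave 0 calls in place of 1 for Col3a1 against Early, for Col6a5 and Col5a3 in Advanced against WT, and for Col12a1 and Col5a3 in Early against WT. The Col6a5 call also went to 0 with DESeq2 size factors, with no filter on low counts, with spots of at least 500 UMIs and without immunoglobulin and hemoglobin genes. Calls over all genes were not counted in these settings, so the losses may not be particular to collagen genes. The causes were not tested. The ratio of classes stayed between 0.13 and 0.29 on the log2 scale.

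Values that turned direction passed no test. Between edge and interior these were Col4a1 (0.0067 with no filter, 0.0065 with the stricter edge), Col1a1 (0.0024 in DESeq2, 0.033 with the stricter edge, 0.0013 with the deeper interior) and Col6a1 (-0.055 with spots of at least 500 UMIs). Leaving out 1 area at a time gave -0.086 to 0.052 for Col4a1, -0.15 to 0.093 for Col1a1, -0.11 to 0.15 for Col6a1, -0.034 to 0.20 for Col12a1 and -0.47 to 0.039 for Col5a3. Over interior spots only, Advanced against Early was -0.16 for Col4a1, -0.10 for Col4a2 and -0.54 for Col6a5, Advanced against WT 0.16 for Col1a1, 0.47 for Col3a1 and 0.065 for Col6a1, and Early against WT 0.061 for Col6a1, 0.20 for Col6a2 and 0.12 for Col6a3. Over edge spots only, Col5a3 was at -0.32 between Advanced and Early.

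Without the area as a replicate block, 0 collagen genes were called between edge and interior, as with it, and Col6a1 (-0.029) and Col12a1 (-0.012) turned direction. Conditions could not be paired, because WT, Early and Advanced areas came from different mice. Edge and interior were paired through the area block of the main fit. WT and Early had 1 area each, so without 1 Advanced area no spread remained and only values were given. Interior sums were shallow, and genes under about 500 UMIs had wide intervals.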
